A study of Mus musculus with 24 samples.

Results

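Interferon gamma (Ifng), the chains of its receptor (Ifngr1 and Ifngr2) and the Janus kinases Jak1, Jak2 and Tyk2 were followed by RNA sequencing through the first 24 h of CD4+ T-cell activation. The genes were taken by symbol, and all 6 were found among the 22009 named genes of the table. The cells were CD4+ cells of spleen from wildtype adult C57BL/6 mice, purified by magnetic removal of other cells and pooled from several mice. The labels call them purified CD4+ cells, while the methods of the study speak of naive cells, and memory cells cannot be told apart in bulk RNA. A table of 24 libraries was analysed: 2 of resting cells, 18 of cultures and 4 of cells given actinomycin. Every culture was stimulated with anti-CD3 and anti-CD28, and Th0 cultures with nothing else. For Th1, IL-12 and an antibody against IL-4 were added. For Th2, IL-4 was added with antibodies against IL-12 and against IFN-γ itself. Each condition was sequenced once at 4, 8, 12, 16, 20 and 24 h. For the actinomycin libraries, 16 h of stimulation preceded 0, 1, 2 or 4 h with the drug, and the labels do not say which skewing these cells had. The resting libraries carry another tag in their labels than the cultures, so their preparation cannot be told apart from activation.

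IFN-γ is the signature cytokine of Th1 cells. It binds a receptor made of the ligand-binding chain Ifngr1, which carries Jak1, and the signalling chain Ifngr2, which carries Jak2, and the paired kinases then pass the signal to transcription factors of the STAT family. Tyk2 serves other receptors, among them those for type I interferon, IL-10 and IL-12, while Jak1 and Jak2 are shared by many cytokine receptors. In T cells the IL-12 receptor, the transcription factor T-bet (Tbx21) and Stat4 drive transcription of Ifng.

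Expression is given as RPKM, a read count scaled to the length of the transcript and to the mapped total of the library. Levels of different genes can thus be compared per length, as far as the lengths used are right. Those behind Ifngr1, Ifngr2, Jak1 and Jak2 could not be recovered. The libraries held between 17512385 and 33017133 mapped reads, a number recovered from the values. Reads per gene could be recovered for Ifng and Tyk2 only, and intervals given for these are exact Poisson 95% intervals, which cover counting error only. The T-cell markers Cd3d, Cd3e, Cd3g, Cd4 and Lck summed to between 957 and 1651 RPKM over resting cells and cultures. Markers of other spleen cells were present too. Those of macrophages summed to between 468 and 491 RPKM in resting cells, between 43.7 and 74.0 RPKM at 4 h and between 7.68 and 12.1 RPKM at 24 h. Those of red blood cells summed to between 23413 and 25519 RPKM in resting cells and to at most 125 RPKM at 24 h. B-cell markers were between 62.2 and 72.3 RPKM in resting cells and at most 18.2 RPKM at 24 h, and CD8 T-cell markers at most 15.7 RPKM in any library. These sums were lower late in culture, as several of the 6 genes were, and their part in the results was not tested.

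The 250 bases before the RefSeq start of the ligand, both receptor chains and Jak1 are shown, since these 4 genes were called between conditions or between 4 and 24 h. They are written 5′ to 3′ on the strand of the gene, in GRCm38.p6, with capitals marking matches to 6 motifs searched on both strands. The STAT site was searched as TTCNNNGAA and the cyclic AMP response element as TGACGTCA. The TATA box was searched as TATAAA. The CCAAT box was searched by the letters of its name. The interferon-stimulated response element was taken as a pair of GAAA words that any 2 bases separate. The AP-1 site was taken as TGA and its reverse complement with any 1 base between them.
Ifng, chr10:118440796-118441045, + strand: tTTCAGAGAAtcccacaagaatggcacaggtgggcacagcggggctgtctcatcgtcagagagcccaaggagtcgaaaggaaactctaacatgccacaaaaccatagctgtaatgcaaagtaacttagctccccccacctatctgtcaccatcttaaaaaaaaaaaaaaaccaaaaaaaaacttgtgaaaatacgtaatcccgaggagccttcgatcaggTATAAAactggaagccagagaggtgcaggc
Ifngr1, chr10:19591699-19591948, + strand: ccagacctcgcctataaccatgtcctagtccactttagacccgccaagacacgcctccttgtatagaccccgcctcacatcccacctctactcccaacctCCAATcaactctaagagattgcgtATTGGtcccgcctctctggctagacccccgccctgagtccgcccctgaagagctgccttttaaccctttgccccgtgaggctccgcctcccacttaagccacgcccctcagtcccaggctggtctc
Ifngr2, chr16:91546809-91547058, + strand: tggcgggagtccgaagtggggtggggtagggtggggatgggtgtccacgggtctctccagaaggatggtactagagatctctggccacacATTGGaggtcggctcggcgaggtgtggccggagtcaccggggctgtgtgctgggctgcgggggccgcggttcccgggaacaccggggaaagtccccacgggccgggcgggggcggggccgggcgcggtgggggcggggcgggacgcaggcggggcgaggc
Jak1, chr4:101265224-101265473, - strand: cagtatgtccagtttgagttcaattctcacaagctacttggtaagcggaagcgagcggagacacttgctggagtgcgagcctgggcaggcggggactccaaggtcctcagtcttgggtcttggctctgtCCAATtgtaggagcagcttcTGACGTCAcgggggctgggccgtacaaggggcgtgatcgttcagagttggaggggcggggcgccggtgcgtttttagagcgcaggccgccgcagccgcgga

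The Ifng promoter held a match to the STAT site 249 bases before the start and a TATA box 30 bases before it. The receptor chains, Jak1 and Tyk2 held CCAAT, and Jak1 also held the cyclic AMP response element. Neither the interferon-stimulated response element nor the AP-1 site was found in the window of any of the 6 genes. Among 32851 RefSeq promoters of the same length, 7.02% held the STAT site, 12.4% the TATA box, 33.8% CCAAT, 1.55% the cyclic AMP response element, 2.98% the interferon-stimulated response element and 6.75% the AP-1 site. A further motif, the NFAT core GGAAA, was left in lower case because 55.6% of promoters held it. A match is a description of the letters and was not tied to any expression value.

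Ifng was expressed most strongly in Th1 cultures at every time point. The gene (ENSMUSG00000055170.4) spans 118441046 to 118445892 of chromosome 10 in GRCm38, with 4 exons. Resting cells had 29.7 RPKM (709 reads, 27.6 to 32.0) and 28.5 RPKM (810 reads, 26.6 to 30.5), a pair that did not differ beyond counting error. Th1 cultures had 206 RPKM at 4 h, 414 at 8 h, 451 at 12 h, 499.9 at 16 h, 428 at 20 h and 388 at 24 h. The Th1 level was thus already far above resting cells in the earliest library and was highest at 16 h. Th0 cultures had 14.9 RPKM at 4 h, 19.1 at 8 h, 46.2 at 12 h, 65.0 at 16 h, 75.1 at 20 h and 94.5 at 24 h. Th2 cultures had 60.5 RPKM at 4 h, 62.6 at 8 h, 71.4 at 12 h, 73.0 at 16 h, 75.0 at 20 h and 66.2 at 24 h. The ranges of Th1 and the other conditions did not overlap, all Th1 and Th2 libraries were above both resting libraries, and the Th0 libraries of 4 and 8 h were below them.

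**Figure D1:**
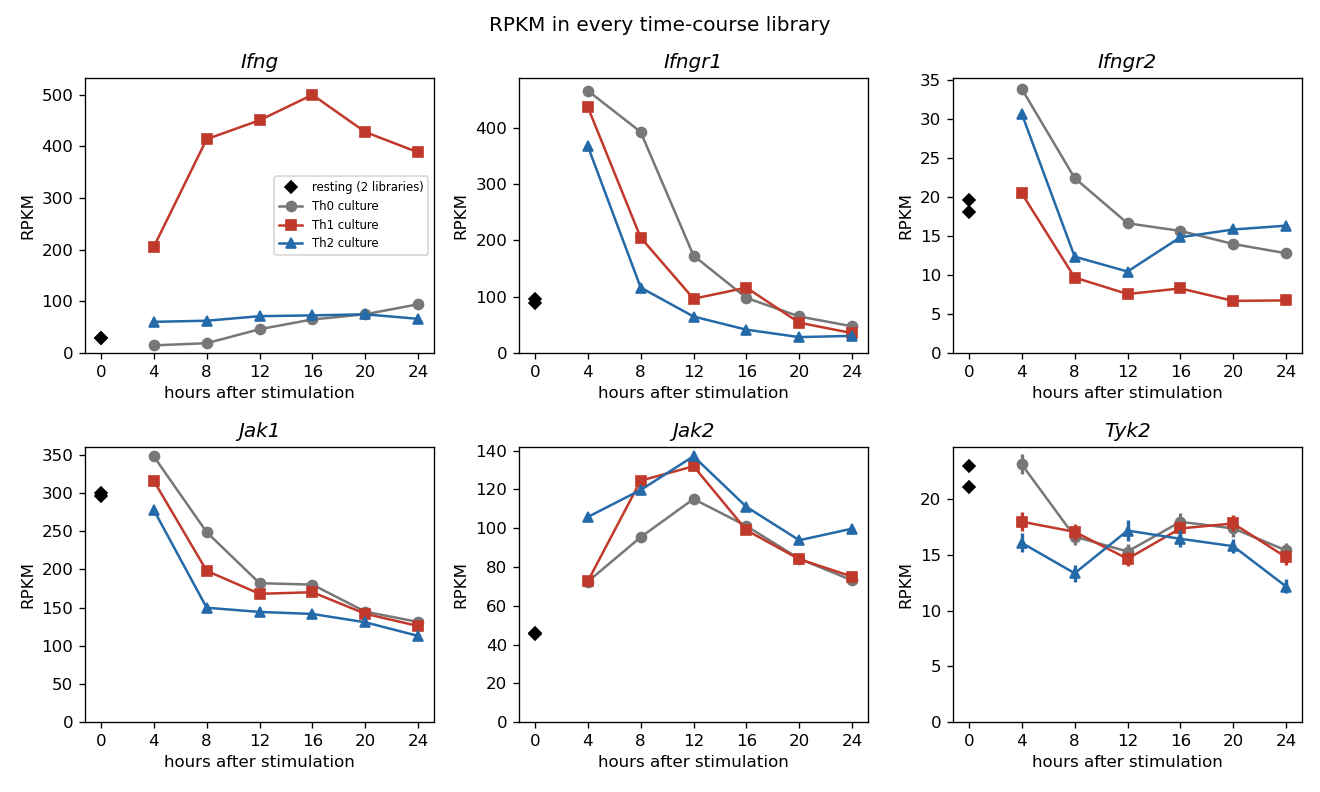
RPKM of the 6 genes (vertical axes, from 0) against hours after stimulation, with 1 point for each library of resting cells (black diamonds, at 0 h), Th0 (grey), Th1 (red) and Th2 (blue) cultures, and vertical bars for Poisson 95% intervals of Ifng and Tyk2 in the cultures, where they are wider than the symbol. Ifng reached 499.9 RPKM in Th1 cultures at 16 h, Ifngr1 went from between 368 and 466 RPKM at 4 h to between 30.5 and 47.5 RPKM at 24 h, and Jak2 had its highest values at 12 h in Th0, Th1 and Th2.

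Conditions were compared with limma in a model of the 18 cultures that has a term for every time point. A difference was called at an adjusted p under 0.05 and at least 2-fold. SE is the standard error. Each condition and time was sequenced once and all cultures stem from the same pooled cells, so the p-values reflect spread between libraries rather than between mice. The fit took the 6 time points of a condition as independent, although they are samples of 1 culture series. An effect of a condition therefore cannot be told apart from an offset of its series. Ifng was higher in Th1 than in Th0 by 3.15 on the log2 scale (SE 0.26, limma adjusted p = 8.68e-06), and it was the 1 gene of the 6 called in that comparison, in which 0.494% of all genes tested were called. It was lower in Th2 than in Th1 by a log2 difference of -2.49 (SE 0.26, limma adjusted p = 7.09e-06), again the 1 member called, against 1.96% of all genes. The fitted difference between Th2 and Th0, 0.66 (SE 0.26, limma adjusted p = 0.0679), did not pass. In bulk RNA, fewer cells that express a gene and less RNA per cell cannot be told apart.

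The mean difference hid an order that turned over time. The Th2 level of Ifng was 4.06 times the Th0 level at 4 h (95% interval of the ratio 3.64 to 4.53), 3.28 times at 8 h and 1.55 times at 12 h. At 16 h the ratio was 1.12 (1.05 to 1.19), at 20 h it was 0.999 (0.942 to 1.06), and at 24 h it was 0.701 (0.663 to 0.742), so Th0 stood above Th2 at the last time point. These intervals cover counting error in 1 library each. The change per hour of Th2 against Th0 was -0.13 on the log2 scale (SE 0.02, limma adjusted p = 0.00147). Ifng was the 1 member called for this slope, against 3.93% of all genes. With 12 to 24 h alone, the difference of Ifng between Th2 and Th0 was 0.07 (limma adjusted p = 0.799).

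The gap of Ifng between Th1 and Th0 was widest at 8 h, with a ratio of 21.7 (95% interval 20.0 to 23.6), and was 4.11 (3.95 to 4.28) at 24 h. Its change per hour was -0.10 (SE 0.02, limma adjusted p = 0.0548), so limma called 0 of the 6 genes for this slope, against 0.0279% of all genes. At an unadjusted p under 0.05 there was 1, Ifng, beside 991 of all 10737 genes. Without the 4 h time point the slope of Ifng was -0.14 (limma adjusted p = 0.00347) and was called, 1 of 45 genes called among 10634. Th2 held between 0.146 and 0.294 of the Th1 level at all 6 time points. For the change per hour of Th2 against Th1 limma called 0 of the 6 genes, against 0.950% of all genes called. At an unadjusted p under 0.05 there was 1 of the 6, beside 1957 of all 10737 genes.

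In the comparison with resting cells, each time point was represented by its Th0, Th1 and Th2 library together, so the gap between conditions counted as spread. In this fit Ifng was not called at any time point, with a log2 difference of 0.97 at 4 h (SE 1.34, limma adjusted p = 0.622) and 2.19 at 24 h (SE 1.34, limma adjusted p = 0.161). With the condition as a covariate Ifng was called at 8, 12, 16, 20 and 24 h, with differences of 1.43, 1.95, 2.18, 2.19 and 2.19 and limma adjusted p between 0.000118 and 0.00548. At 4 h the Th0 library had 0.501 (0.444 to 0.565) and 0.523 (0.464 to 0.588) of the levels in the resting libraries, a difference beyond counting error.

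Natural killer (NK) cells also express Ifng, and their markers (Ncr1, Klrb1c, Klra8, Klre1 and Gzma) were detected. Their summed level was between 114.6 and 114.8 RPKM in resting cells. At 4 h it was 179 RPKM for Th1, 150.1 for Th2 and 70.3 for Th0, the same order as that of Ifng. At 24 h it was 50.9 RPKM for Th2, 29.9 for Th1 and 17.1 for Th0, where the order of Ifng was Th1, Th0 and Th2. In each condition the sum was lower at 24 h than at 4 h. Between these times Ifng went from 14.9 to 94.5 RPKM in Th0, from 206 to 388 in Th1 and from 60.5 to 66.2 in Th2. Most of the sum was Gzma, a granule protease that activated T cells can also express. Ncr1, an activating receptor of NK cells, had 12.2 RPKM for Th1, 4.28 for Th2 and 2.52 for Th0 at 4 h, beside 8.43 and 8.67 RPKM in resting cells. Klre1 had the same order at 4 h. Klrb1c (5.30 RPKM for Th1, 10.4 for Th2 and 6.74 for Th0) and Klra8 (6.47, 8.12 and 6.80) were lowest in Th1 at that time. None of the 5 markers was at 0 in any library, the lowest value being 0.0741 RPKM, and their part in the Ifng level was not tested. Of the 50-base windows of Ifng transcripts, 19.9% also occur in Gm49751, an overlapping annotated transcript on the same strand that has no row in the table. Values of Ifng were whole multiples of 1 read, and how shared reads were counted is not known.

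Ifngr1, the ligand-binding chain, had its highest level at 4 h and then fell in Th0, Th1 and Th2 cultures. The gene (ENSMUSG00000020009.13) spans 19591949 to 19610229 of chromosome 10. Its level in resting cells was 88.6 and 95.1 RPKM. Th0 cultures had 466 RPKM at 4 h, 393 at 8 h, 173 at 12 h, 98.0 at 16 h, 65.0 at 20 h and 47.5 at 24 h. Each Th0 value was below the one before it. Th1 cultures had 437 RPKM at 4 h, 205 at 8 h, 96.5 at 12 h, 116 at 16 h, 53.9 at 20 h and 35.4 at 24 h. Th2 cultures had 368 RPKM at 4 h, 116 at 8 h, 64.9 at 12 h, 41.6 at 16 h, 28.4 at 20 h and 30.5 at 24 h. All 3 cultures of 4 h and of 8 h were above both resting libraries, and all 3 of 20 h and of 24 h were below them.

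The rise of Ifngr1 at 4 h was 2.19 on the log2 scale (SE 0.50, limma adjusted p = 0.00281), and Ifngr1 was the 1 member called at 4 h, against 10.6% of all genes. At 24 h it was below resting cells by a log2 difference of -1.29 (SE 0.50, limma adjusted p = 0.0302). Ifngr1 and Jak1 were the 2 members called at 24 h, where 30.1% of all genes were called. The call of Ifngr1 at 24 h did not hold when libraries were left out. Its limma adjusted p was 0.0907 with resting replicate 1 removed, 0.117 with resting replicate 2 removed and 0.118 with the Th1 cultures removed. From 4 to 24 h Ifngr1 fell by 3.48 on the log2 scale (SE 0.44, limma adjusted p = 5.57e-06). Of the 6 genes, 3 were called between 24 h and 4 h (Ifngr1, Ifngr2 and Jak1), all lower at 24 h, against 26.2% of all genes called and 13.2% called lower.

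Th2 had the lowest Ifngr1 level at all 6 time points. Its ratio to Th0 was 0.789 at 4 h, 0.296 at 8 h, 0.375 at 12 h, 0.424 at 16 h, 0.436 at 20 h and 0.643 at 24 h. The fitted log2 difference was -1.09 (SE 0.16, limma adjusted p = 0.000206), and Ifngr1 was the 1 member called between Th2 and Th0, against 2.01% of all genes. Without the 8 h time point the difference was -0.96 (limma adjusted p = 0.00105), just under 2-fold. Between Th2 and Th1 the difference of Ifngr1 was -0.71 (SE 0.16, limma adjusted p = 0.00893), under 2-fold. Between Th1 and Th0 it was -0.38 (SE 0.16, 95% interval -0.73 to -0.04, limma adjusted p = 0.263), with Th1 lower at 5 of 6 time points.

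Ifngr2, the signalling chain, was the scarcer of the receptor chains in all 20 libraries of the time course. The gene (ENSMUSG00000022965.8) spans 91547072 to 91565623 of chromosome 16. Resting cells had 19.6 and 18.04 RPKM. Th0 cultures had 33.8 RPKM at 4 h, 22.4 at 8 h, 16.6 at 12 h, 15.6 at 16 h, 13.96 at 20 h and 12.8 at 24 h. As with Ifngr1, each Th0 value was below the one before it. Th1 cultures had 20.4 RPKM at 4 h, 9.67 at 8 h, 7.56 at 12 h, 8.28 at 16 h, 6.68 at 20 h and 6.74 at 24 h. Th2 cultures had 30.6 RPKM at 4 h, 12.3 at 8 h, 10.4 at 12 h, 14.8 at 16 h, 15.8 at 20 h and 16.3 at 24 h. Th1 was the lowest of the 3 at every time point, and Th2 went from below Th0 up to 16 h to above it at 20 and 24 h.

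The log2 difference of Ifngr2 between Th1 and Th0 was -0.96 (SE 0.13, limma adjusted p = 0.000591), just under 2-fold. Without the 4 h time point it was -1.004 (limma adjusted p = 0.0026) and was called. Between Th2 and Th1 the difference was 0.76 (SE 0.13, limma adjusted p = 0.000754), under 2-fold, with Th2 higher at 6 of 6 time points. Between Th2 and Th0 it was -0.20 (SE 0.13, 95% interval -0.47 to 0.08, limma adjusted p = 0.263). The change per hour of Th2 against Th0 was 0.04 (SE 0.01, limma adjusted p = 0.0953), and without the 4 h time point it was 0.08 (limma adjusted p = 0.00202) and was called. Among all genes, 1978 of 10634 were called for this slope without 4 h, and 3.93% with all time points. Ifngr2 fell by 1.26 on the log2 scale between 4 and 24 h (SE 0.39, limma adjusted p = 0.00909). It was not called against resting cells at any time point.

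The level of Ifngr1 divided by that of Ifngr2 therefore differed among conditions. It was 4.52 and 5.27 in resting cells. In Th1 cultures it was between 5.25, at 24 h, and 21.4, at 4 h. In Th0 cultures it was between 3.72 and 17.5, and in Th2 cultures between 1.79 and 12.0. At each of the 6 time points Th1 had the highest ratio and Th2 the lowest. The ratio is a description of levels per length, rests on lengths that could not be recovered for either chain, and was not tested.

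**Figure D2:**
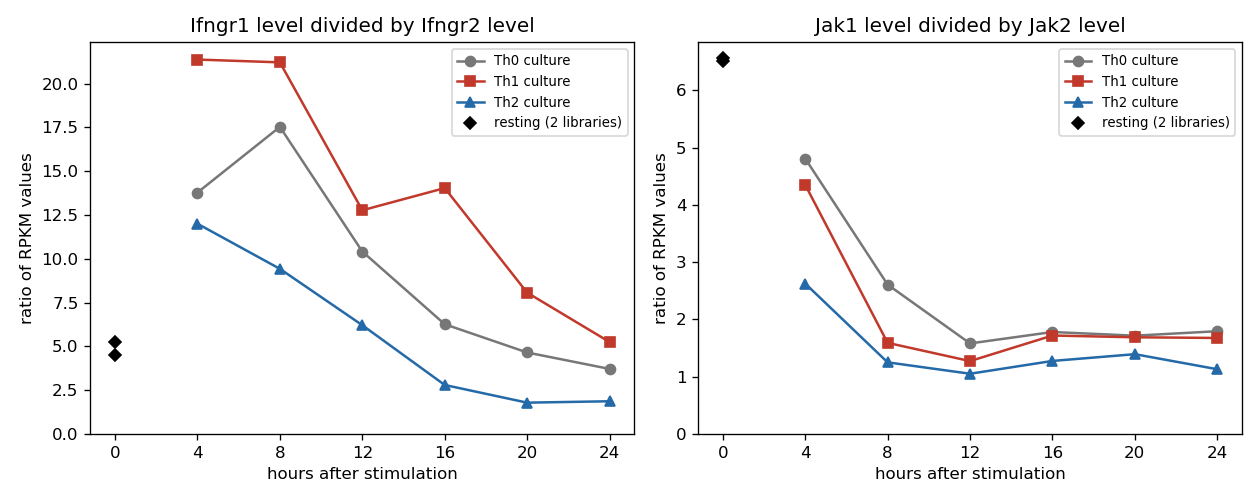
Level of Ifngr1 divided by that of Ifngr2 (left) and of Jak1 divided by that of Jak2 (right), both as ratios of RPKM values from 0, against hours after stimulation for each library of resting cells (black), Th0 (grey), Th1 (red) and Th2 (blue) cultures. The receptor ratio was highest in Th1, at most 21.4, and lowest in Th2, down to 1.79, and the kinase ratio went from 6.51 and 6.56 in resting cells to between 1.05 and 1.58 at 12 h.

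Jak1, the kinase bound to Ifngr1, was the most abundant of the 6 genes in resting cells, with 301 and 296 RPKM. The gene (ENSMUSG00000028530.14) spans 101152367 to 101265282 of chromosome 4, on the minus strand. Th0 cultures had 348 RPKM at 4 h, 249 at 8 h, 182 at 12 h, 180.1 at 16 h, 145 at 20 h and 131 at 24 h. Th1 cultures had 316 RPKM at 4 h, 198 at 8 h, 168 at 12 h, 170.2 at 16 h, 142 at 20 h and 126 at 24 h. The Th0 and Th1 libraries of 4 h were the 2 cultures above both resting libraries. Th2 cultures had 278 RPKM at 4 h, 149.8 at 8 h, 144 at 12 h, 142 at 16 h, 131 at 20 h and 113 at 24 h. From 8 h on every culture was below both resting libraries, and at all 6 time points the order was Th0, Th1 and Th2.

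The log2 difference of Jak1 against resting cells was 0.07 at 4 h (SE 0.17, limma adjusted p = 0.799). At 20 h it was -1.10 (SE 0.17, limma adjusted p = 4.02e-05), and Jak1 was the 1 member called then, against 29.0% of all genes. Quantile normalization also called Jak1 at 12 and 16 h, with -1.003 and -1.01. At 24 h it was -1.27 (SE 0.17, limma adjusted p = 8.59e-06). Between 4 and 24 h Jak1 fell by 1.34 on the log2 scale (SE 0.15, limma adjusted p = 1.86e-06). The differences between conditions were under 2-fold: -0.35 for Th2 against Th0 (SE 0.07, limma adjusted p = 0.00194), -0.22 for Th2 against Th1 (SE 0.07, limma adjusted p = 0.0456) and -0.13 for Th1 against Th0 (SE 0.07, limma adjusted p = 0.386). Raver2, whose exons overlap Jak1 on the opposite strand, had at most 2.68 RPKM.

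Jak2, the kinase bound to Ifngr2, was above both resting libraries in all 18 cultures. The gene (ENSMUSG00000024789.13) spans 29251828 to 29313080 of chromosome 19. Resting cells had 45.9 and 45.5 RPKM. Th0 cultures had 72.4 RPKM at 4 h, 95.4 at 8 h, 115 at 12 h, 101 at 16 h, 84.3 at 20 h and 73.1 at 24 h. The level thus went up to 12 h and down after it. Th1 cultures had 72.7 RPKM at 4 h, 125 at 8 h, 132 at 12 h, 99.0 at 16 h, 84.0 at 20 h and 75.0 at 24 h. Th2 cultures had 106 RPKM at 4 h, 119.7 at 8 h, 137 at 12 h, 111 at 16 h, 93.8 at 20 h and 99.8 at 24 h. The highest value of each condition was that of 12 h.

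Against resting cells Jak2 rose by 1.29 on the log2 scale at 8 h (SE 0.17, limma adjusted p = 1.33e-05), by 1.47 at 12 h (limma adjusted p = 2.07e-06) and by 1.17 at 16 h (limma adjusted p = 2.44e-05). It was the 1 member called at each of these times, against 18.9%, 27.1% and 25.7% of all genes. Some settings called others too: Ifngr1 at 8 h, where its difference of 1.195 had a limma adjusted p of 0.054, passed with the condition as a covariate (0.000668), with median-of-ratios scaling (0.034) and without the Th2 cultures (0.00118). At 4 and 24 h the differences of Jak2 from resting cells, 0.84 (limma adjusted p = 0.00113) and 0.83 (limma adjusted p = 0.000414), were under 2-fold. Between 24 h and 4 h the difference was -0.01 (SE 0.15, 95% interval -0.33 to 0.31, limma adjusted p = 0.966). Jak2 was higher in Th2 than in Th0 at 6 of 6 time points, by 0.31 on the log2 scale (SE 0.08, limma adjusted p = 0.00908), under 2-fold. The difference between Th1 and Th0 was 0.10 (SE 0.08, 95% interval -0.07 to 0.26, limma adjusted p = 0.557).

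Tyk2, a kinase of the IL-12 and type I interferon receptors, varied least of the 6 genes. The gene (ENSMUSG00000032175.11) spans 21104068 to 21131243 of chromosome 9, on the minus strand, and its exons overlap an antisense gene, 1700084C06Rik, that has no row in the table. Resting cells had 21.1 RPKM (1926 reads, 20.2 to 22.1) and 23.0 RPKM (2505 reads, 22.1 to 24.0). Th0 cultures had 23.1 RPKM at 4 h, 16.7 at 8 h, 15.3 at 12 h, 17.99 at 16 h, 17.4 at 20 h and 15.4 at 24 h. The Th0 level of 4 h was close to that of resting cells, and the later ones were below it. Th1 cultures had 17.99 RPKM at 4 h, 17.1 at 8 h, 14.7 at 12 h, 17.4 at 16 h, 17.8 at 20 h and 14.8 at 24 h. Th2 cultures had 16.1 RPKM at 4 h, 13.4 at 8 h, 17.2 at 12 h, 16.5 at 16 h, 15.8 at 20 h and 12.2 at 24 h. Of the 18 cultures, 17 were below both resting libraries, the exception being Th0 at 4 h.

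The largest difference of Tyk2 from resting cells in the fits was -0.63 on the log2 scale, at 24 h (SE 0.15, limma adjusted p = 0.00146), under 2-fold. Between conditions the adjusted p (limma) of Tyk2 was 0.683 for Th1 against Th0, 0.0731 for Th2 against Th0 and 0.348 for Th2 against Th1, with log2 differences of -0.07, -0.21 and -0.13. At 4 h the Th1 and Th2 libraries held 0.778 (0.732 to 0.826) and 0.695 (0.652 to 0.742) of the Th0 level, outside counting error. The 2 resting libraries also differed by more than counting error for Tyk2 (ratio 1.09, 1.03 to 1.16), so counting error understates the spread between libraries.

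**Figure D3:**
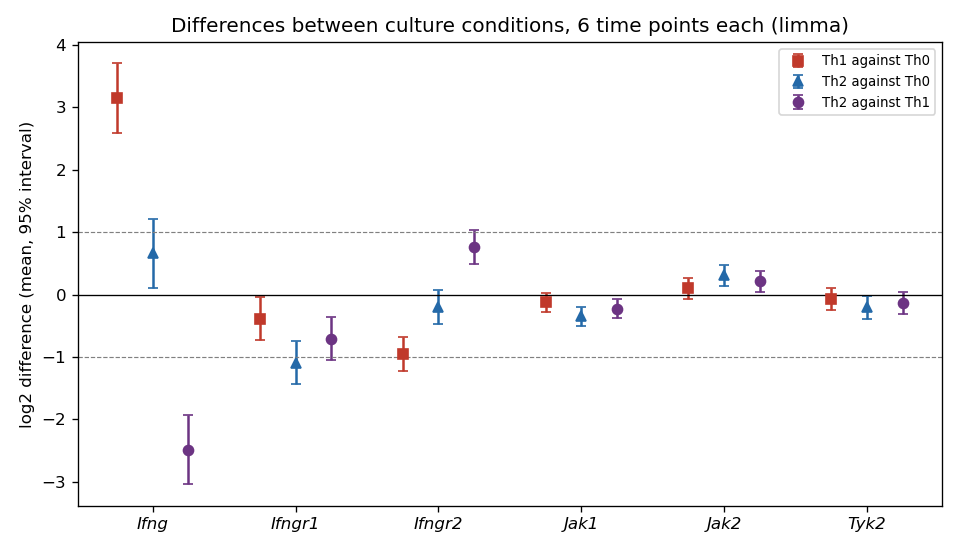
Log2 differences between culture conditions (vertical axis) for the 6 genes, from limma over 6 time points per condition, as the estimate (Th1 against Th0 red squares, Th2 against Th0 blue triangles, Th2 against Th1 purple circles) with its 95% interval and dashed lines at 2-fold. Ifng stands at 3.15 for Th1 against Th0 and -2.49 for Th2 against Th1, Ifngr1 at -1.09 for Th2 against Th0, and the kinases lie within 0.35 of 0.

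The makeup of the Janus kinases was followed with Jak3, the kinase that pairs with the common gamma chain, added. The summed level of the 4 kinases was between 404 and 406 RPKM in resting cells, between 418 and 461 RPKM at 4 h and between 246 and 256 RPKM at 24 h. Jak1 made up between 73.2% and 74.2% of the sum in resting cells and between 45.1% and 55.1% at 12 h. Jak2 made up 11.3% of it in both resting libraries and between 34.8% and 42.8% at 12 h. The share of Tyk2 stayed between 3.85% and 6.36% in resting cells and cultures. All these shares rest on the lengths used for Jak1 and Jak2, which could not be recovered. Jak3 had 37.8 and 39.8 RPKM in resting cells and between 16.0 and 18.4 RPKM at 4 h, a log2 difference of -1.15 (limma adjusted p = 0.000261), and it did not pass at 24 h (-0.39).

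Actinomycin blocks transcription, so the libraries given the drug show how levels change relative to the RNA that remains. Ifng had 93.4 RPKM at 0 h (2900 reads, 90.0 to 96.8), 67.1 RPKM at 1 h (1704 reads, 64.0 to 70.4), 40.0 RPKM at 2 h (905 reads, 37.4 to 42.7) and 38.1 RPKM at 4 h (830 reads, 35.5 to 40.8). The first 3 intervals do not overlap, while those of 2 and 4 h do. The slope of Ifng was -0.32 per hour on the log2 scale (SE 0.06, limma adjusted p = 2.69e-06), where the median of all genes was 0.0022. Ifng was the 1 member called, against 9.55% of all genes, and 2.51% of genes had a lower slope. An exact two-sided permutation of the 4 libraries gave p = 0.125, where the smallest possible p was 0.0417. Without the 0 h library the slope was -0.24 (limma adjusted p = 0.118), and without the 4 h library it was -0.61 (limma adjusted p = 0.00108).

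The receptor chains and kinases were not called after actinomycin. Ifngr1 had 68.8 RPKM at 0 h, 49.3 at 1 h, 60.2 at 2 h and 49.8 at 4 h, a slope of -0.08 (limma adjusted p = 0.296). Ifngr2 had 9.47, 9.74, 9.58 and 14.5 RPKM at those times, a slope of 0.15 (limma adjusted p = 0.111). Jak1 had 142, 135, 129 and 123 RPKM (slope -0.05, limma adjusted p = 0.562), and Jak2 had 126, 105, 125 and 113 RPKM (slope -0.02, limma adjusted p = 0.844). Tyk2 had 14.2, 14.7, 16.6 and 22.3 RPKM, a slope of 0.17 (SE 0.06, limma adjusted p = 0.0473, exact permutation p = 0.0417), worth less than 2-fold over 4 h. A value scaled to the mapped total can go up while the RNA of a gene is lost, if the rest is lost faster. NK markers summed to between 3.96 and 8.51 RPKM in these libraries, under the 17.1 RPKM of the lowest culture. Macrophage markers summed to between 53.7 and 76.6 RPKM, above the 10.9 to 26.5 RPKM of the 16 h cultures. Most of this sum was Lyz2 (45.9, 49.8, 60.0 and 21.5 RPKM at 0, 1, 2 and 4 h) and, at 4 h, Cd68 (30.5 RPKM). None of the other macrophage markers was above 2.48 RPKM, beside at most 2.34 RPKM in the 16 h cultures. The part of other cells in these levels was not tested.

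**Figure D4:**
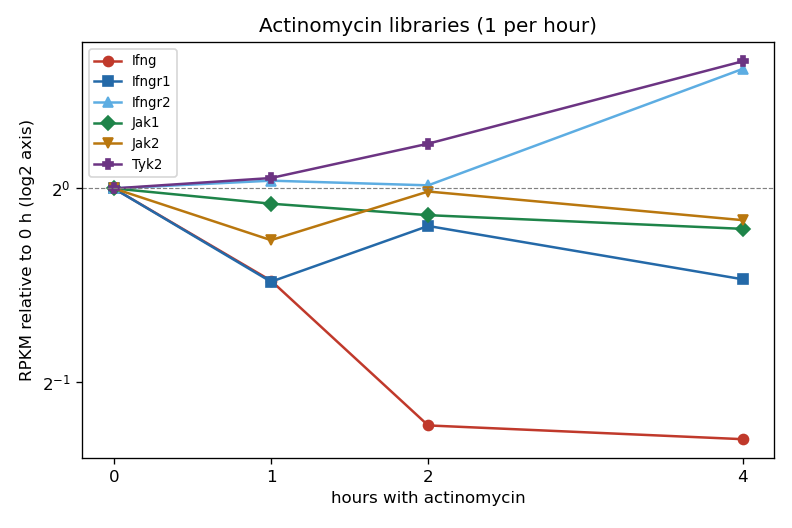
RPKM relative to the 0 h library (vertical log2 axis) of the 6 genes against hours with actinomycin, 1 library for each hour. Ifng was at 0.408 of its 0 h level after 4 h, and Ifngr2 and Tyk2 were at 1.53 and 1.58 of theirs.

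Several genes upstream of Ifng were lower in Th2 cultures. Of 9 inducers tested, 2 were called lower in Th2 than in Th0 and 4 lower than in Th1, where 1.83% and 1.39% of all genes were. Between Th1 and Th0 limma called 0 of them, and 5 had an unadjusted p under 0.05. Among all 10737 genes tested there, 0.494% were called and 1757 had an unadjusted p under 0.05. The median log2 difference of the list was -0.41 for Th2 against Th0 and -0.89 for Th2 against Th1, where the medians of all genes were 0.0020 and 0.02. Tbx21, which encodes T-bet, was lower in Th2 than in Th0 by a log2 difference of -1.78 (limma adjusted p = 0.0013), and had 41.0 RPKM in Th0, 47.0 in Th1 and 3.50 in Th2 at 24 h. Il12rb2, the signal-bearing chain of the IL-12 receptor, differed by -1.27 (limma adjusted p = 0.00267). At 4 h it had 13.4 RPKM in Th2 and 12.0 in Th0, and at 24 h 1.75 RPKM in Th2 and 9.87 in Th0. Stat4 was also higher in Th2 than in Th0 at 4 h, with 103 and 80.4 RPKM. Il18r1, a chain of the IL-18 receptor, differed by -1.64 for Th2 against Th1 (limma adjusted p = 1.21e-07), and Il18rap, the other chain, by -1.39 (limma adjusted p = 2.28e-07). Between Th1 and Th0, Il18rap differed by 0.98 (limma adjusted p = 8.11e-05), just under 2-fold.

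Several STAT and IRF factors of the IFN-γ and Janus kinase pathways were lower in Th2 cultures. The list also holds factors of other cytokine receptors, such as Stat2 and Stat5a. Of 9 STAT and IRF factors, 5 were called lower in Th2 than in Th0 (median of the list -1.08), and 3 were called lower and 1 higher in Th2 than in Th1. Of all genes, 1.83% and 1.39% were called lower in these comparisons. Between Th1 and Th0 limma called 0 of these factors, with 5 at an unadjusted p under 0.05. Among all 10737 genes, 0.494% were called there and 1757 had an unadjusted p under 0.05. Irf1, a factor that interferons induce, differed by -2.20 for Th2 against Th0 (limma adjusted p = 1.41e-08). It had 643 RPKM for Th0, 592 for Th1 and 232 for Th2 at 4 h, and 219, 199.8 and 42.4 RPKM at 24 h. Stat2, a factor of type I interferon signalling, differed by -1.46 (limma adjusted p = 3.86e-07). Stat5a, a factor downstream of IL-2, was the 1 called higher in Th2 than in Th1, by 1.001 (limma adjusted p = 1.68e-05).

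Of 11 IFN-γ target genes tested, 9 were called lower in Th2 than in Th0 and 9 lower than in Th1, where 1.83% and 1.39% of all genes were called lower. The list median was -2.15 and -2.23. Iigp1, an immunity-related GTPase, differed by -2.96 for Th2 against Th0 (limma adjusted p = 4.33e-08), and Gbp2, a guanylate-binding protein, by -2.81 (limma adjusted p = 5.67e-09). At 4 h Gbp2 had 1529 RPKM for Th0, 2015 for Th1 and 353 for Th2. Psmb8, an immunoproteasome subunit, and Cd274, which encodes PD-L1, were the 2 not called, with differences of -0.97 and -0.57 for Th2 against Th0. Between Th1 and Th0, 2 targets were called: the chemokines Cxcl10 (1.02, limma adjusted p = 7.71e-05) and Cxcl9 (1.05, limma adjusted p = 0.00237) were higher in Th1, where 0.177% of all genes were called higher. The other 9 had no call, and the median of the list was -0.26, beside the log2 difference of 3.15 of Ifng itself. The comparisons share their cultures and are given side by side.

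**Figure D5:**
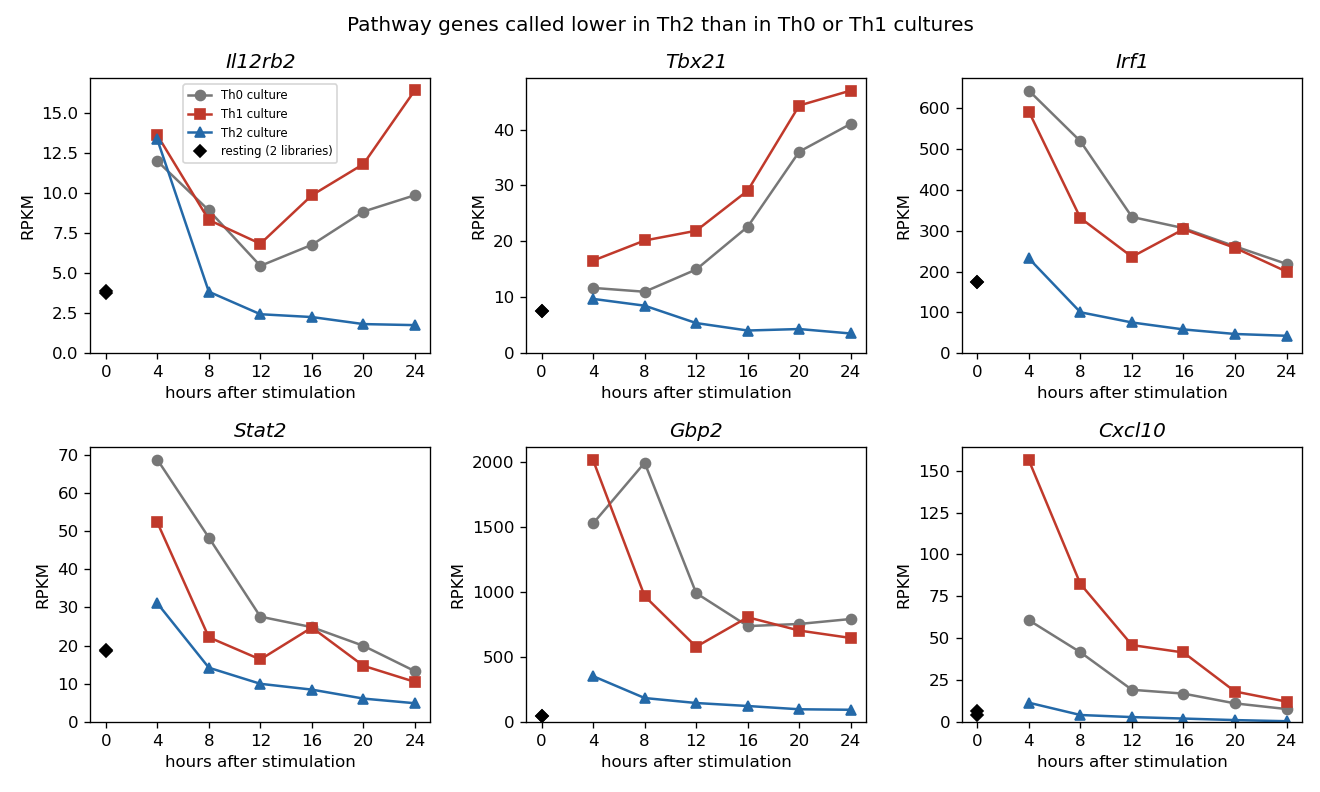
RPKM (vertical axes, from 0) of 2 inducers of Ifng (Il12rb2 and Tbx21), 2 STAT and IRF factors (Irf1 and Stat2) and 2 IFN-γ targets (Gbp2 and Cxcl10) against hours after stimulation, 1 point for each library of resting cells (black), Th0 (grey), Th1 (red) and Th2 (blue) cultures. From 8 h on, the Th2 libraries lie below those of Th0 and Th1 in all 6 panels, for example with Tbx21 at 3.50 RPKM in Th2 at 24 h against 41.0 in Th0.

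Of 15 inhibitors of Janus kinase signalling tested, limma called 0 between Th1 and Th0 and 0 between Th2 and Th0. At an unadjusted p under 0.05 there were 5 and 4, beside 1757 and 4423 of all 10737 genes. With 0.494% and 2.01% of all genes called, counts of 0 are near the background. The 1 called between Th2 and Th1 was Cish, an inhibitor induced through Stat5, which was higher in Th2 by 1.17 (limma adjusted p = 1.18e-06). With activation, Socs1 rose by 2.98 on the log2 scale at 4 h (limma adjusted p = 1.25e-05) and Cish by 2.17 (limma adjusted p = 0.00285), while the phosphatase Ptpn6 fell by 1.28 (limma adjusted p = 0.00021). At 24 h, 3 inhibitors were called higher than in resting cells, and Socs3 and Usp18 were called lower, with -1.82 (limma adjusted p = 0.00513) and -1.52 (limma adjusted p = 0.00418). These counts are near the shares of all genes at 24 h, 12.7% called higher and 17.4% called lower.

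Other receptors that use Jak1, Jak2 or Tyk2 were also followed, a list of 12 tested that shares the IL-12 receptor chains with the inducers. At 24 h, 6 were called lower and 1 higher than in resting cells, with a list median of -0.94, where 17.4% of all genes were called lower and 12.7% higher. The 1 called higher was Il12rb1, a chain of the IL-12 and IL-23 receptors (2.70, limma adjusted p = 4.04e-05). Il7r, the IL-7 receptor, differed by -2.54 (limma adjusted p = 0.00754) and Il6ra, the IL-6 receptor, by -2.20 (limma adjusted p = 1.54e-05). Between Th1 and Th0 the 1 called was Il4ra, the IL-4 receptor (-1.42, limma adjusted p = 0.00304), against 0.494% of all genes. Th1 cultures contain both anti-IL-4 and IL-12, whose parts cannot be told apart. Between Th2 and Th0, 2 were called lower, Il7r (-1.68, limma adjusted p = 1.12e-05) and Il12rb2, against 1.83% of all genes. Between Th2 and Th1, Il4ra was called higher (1.27, limma adjusted p = 0.0015). In that comparison 2 were called lower, Il12rb2 (-1.60, limma adjusted p = 0.000596) and Il7r (-1.45, limma adjusted p = 5.71e-05). Of all genes, 1.96% were called there and 1.39% were called lower.

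The genes whose pattern over the 20 time-course libraries was most like that of each member are given as a description, since the libraries share their time points. For Ifng they were Furin (Pearson r = 0.88 on log2 values), Sytl3 (0.88) and Ccl3 (0.87). Furin, a proprotein convertase, had a mean of 32.1 RPKM in Th0, 66.4 in Th1 and 30.6 in Th2 cultures. For Ifngr1 they were Tax1bp1, Crebrf and Gzmk (0.98, 0.98 and 0.97), and for Ifngr2 Dusp10, Smad4 and Fyb (0.92, 0.91 and 0.90). Dusp10, a phosphatase of MAP kinases, had means of 43.9 RPKM in Th0, 10.3 in Th1 and 43.7 in Th2. For Jak1 they were Pbxip1, Nfe2l2 and Bsdc1 (each 0.99), for Jak2 Ndfip1, Slamf1 and Itgav (0.97, 0.95 and 0.95), and for Tyk2 Gltscr1, Arhgef1 and Gm28035 (0.92, 0.91 and 0.91). Among the members themselves, Ifng and Ifngr2 had r = -0.82, and Ifngr1 and Jak1 had r = 0.82.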

How the data were processed

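RNA sequencing libraries of murine CD4+ T cells (24) were grouped by their labels. The authors deposited RPKM values, 1 table with 22010 entries, of which 1 had no gene name and a sum of 0. The submitters' processing notes name BWA and GRCm38. The counting tool, annotation and strand setting are not given in the sources used here, so reads of overlapping or antisense genes cannot be told apart. RPKM divides by the library total, so a few abundant transcripts can move all other values.

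Mapped reads per library were recovered from the step between low values (between 71.0% and 74.2% of values of single-transcript genes were whole within 0.02). Values of Ifng and Tyk2 were whole multiples of 1 read, and those of the other 4 genes were not, so a count test was not run.

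Differences between groups were fitted to log2(RPKM + 0.5), a scale that understates changes of low genes, with limma 3.58.1 (R 4.3.3) and its intensity trend. Genes whose mean was under 1 RPKM were left out. Benjamini-Hochberg adjustment covered all 10897 genes of the time course, 10737 of the cultures or 10571 of the actinomycin libraries. Calls needed an adjusted p under 0.05 and 2-fold, for slopes over 20 h or over 4 h with actinomycin. Slopes after actinomycin also had an exact permutation test in Python 3.11.15. The procedure was tested on simulated data in which 200 genes changed by 2 on the log2 scale. It found between 190 and 200 of them for differences between times or conditions. For slopes it found 176 (Th1 against Th0), 179 (Th2 against Th0) and 124 (actinomycin). At most 11 unchanged genes were called. The simulated noise was independent in every library, whereas the libraries of a condition are samples of 1 culture series. These counts therefore do not measure errors shared along a series. Positions and transcript overlaps are from GENCODE M21 and promoters from RefSeq, in which all 6 genes were found by symbol. The members, gene lists and marker lists were chosen with earlier results of these data known. Named genes are the members, those with the 2 largest called differences of each list in each direction, list genes named for their role and the 3 genes most like each member. 1 listed gene is counted but not reported by name here, and the next of its list is given instead. Alternatives were other pseudocounts, filters and scalings, no trend, fewer libraries, the condition as a covariate and leaving out each resting library, condition or time point.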

Additional observations from a re-analysis of the deposited data

Results flagged for a closer look

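The change per hour of Ifng between Th2 and Th0 cultures was -0.13 on the log2 scale (limma adjusted p = 0.00147), and it is listed here because the test of the difference in slope passed: the 2 conditions differed in how Ifng moved over time. Th0 went from 14.9 RPKM at 4 h to 94.5 RPKM at 24 h, while the 6 Th2 libraries lay between 60.5 and 75.0 RPKM. Leaving out 1 time point at a time gave slopes of Ifng between -0.14 and -0.12, all called. NK markers summed to between 17.1 and 85.5 RPKM in Th0 and between 39.0 and 150.1 RPKM in Th2, and their part was not tested.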

How the results depend on the processing

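Of 1146 alternative values of the 6 genes, 1095 had the same direction and stayed on the same side of the threshold. The causes of the changes below were not tested, beyond fewer genes or libraries. Requiring a mean of 5 RPKM gave 646 calls for 4 h against resting cells (1152 as reported), 1334 for 8 h against resting (2059) and 665 for actinomycin (1010). Without a filter there were 202 calls for the change per hour of Th2 against Th0 (422), 55 for the slope of Th2 against Th1 (102) and 531 for actinomycin. For the change per hour of Th1 against Th0 (3 calls), a pseudocount of 0.1 gave 6, median-of-ratios scaling 1, quantile normalization 8 and no trend 1. Leaving out 1 time point gave 0 to 45 calls for this slope (0 without 20 h, 45 without 4 h), 82 to 1978 for Th2 against Th0 (82 without 20 h, 1978 without 4 h) and 22 to 278 for Th2 against Th1 (22 without 20 h, 278 without 8 h). Leaving out 1 actinomycin library gave 535 to 1007 calls.

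Ifng passed at 24 h against resting cells (2.19) when the other time points were dropped (limma adjusted p = 0.0243) or the condition was a covariate (0.000118), and at 24 h against 4 h (1.22) with the covariate (0.00567). Against resting cells it also passed at 8, 12 and 16 h with the covariate, and at 20 h with the covariate or without the other time points (0.036). At 20 h Ifngr1 passed with quantile normalization (-1.20, 0.0442) and without the Th0 cultures (-1.22, 0.035), and Jak2 with median-of-ratios scaling (1.02, 0.000194). Leaving out libraries gave -1.47 to -1.15 for Ifngr1 at 24 h against resting, -1.24 to -0.96 for Ifngr1 and Th2 against Th0, -1.004 to -0.91 for Ifngr2 and Th1 against Th0, and -0.61 to -0.24 per hour for Ifng with actinomycin.

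Signs turned for the following values, none of which passed the test as reported. Leaving out libraries gave -0.010 to 0.15 for Jak1 at 4 h against resting, -0.035 to 0.030 for Jak2 at 24 h against 4 h (0.057 with median-of-ratios scaling) and -0.041 to 0.019 for Jak2 with actinomycin. Ifngr1 against resting ranged from -0.21 to 0.49 at 12 h (-0.046 with quantile normalization) and from -0.52 to 0.22 at 16 h. The change per hour of Th1 against Th0 ranged from -0.0044 to 0.040 for Ifngr1, from -0.0076 to 0.017 for Ifngr2 (0.00035 with a pseudocount of 1) and from -0.0022 to 0.017 for Tyk2. That of Th2 against Th0 ranged from -0.029 to 0.062 for Ifngr1, from -0.024 to 0.0036 for Jak2 and from -0.0085 to 0.023 for Tyk2. That of Th2 against Th1 ranged from -0.039 to 0.012 for Ifng, from -0.050 to 0.022 for Ifngr1, from -0.014 to 0.026 for Jak2 and from -0.0094 to 0.0060 for Tyk2 (0.0029 with quantile normalization).

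Against resting cells, scaling moved the median of all genes by 0.071 (16 h) to 0.14 (24 h) with median of ratios and by 0.11 to 0.17 with quantile normalization. The split of calls at 4 h against resting was 284 higher and 868 lower as deposited and 551 and 716 after quantile normalization. At 24 h against resting it was 1389 and 1891 as deposited, 1864 and 1586 after quantile normalization and 1721 and 1605 with median-of-ratios scaling. For the change per hour of Th2 against Th1 it was 28 and 74, and 36 and 55 after quantile normalization, and for the change per hour of Th1 against Th0 it was 2 and 1, and 3 and 5. The comparison of conditions already matched cultures by time point. No paired analysis was possible because replicate numbers, carried by the resting libraries alone, are shared by no groups. Counting error is known for Ifng and Tyk2 alone, and 1 library per condition and time leaves no replicate error for a single time point.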
